A study of Mus musculus with 12 samples.

Results

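The genes described here are 36 NRF2 targets, glutathione genes and antioxidant enzymes, chosen by name from a table of 55573 mouse genes. They were chosen with earlier results of these data known. Each of the 36 symbols matched exactly 1 gene of the table. All 36 passed the filter on low counts, which kept 19174 genes.

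The cells were MEFs, fibroblasts cultured from mouse embryos, in which doxycycline switches on a transgene for OSKM. These letters stand for Oct4, Sox2, Klf4 and Myc, factors that can return fibroblasts to pluripotency. Cultures came from 3 embryos of stage E13.5, here called clones 1 to 3, and their mRNA was sequenced, so that each clone gave 1 library to each of 4 groups. MEF cells had no doxycycline and no added vitamin B12, MEF+B12 cells had 2 µM B12, OSKM cells had 1 µg/ml doxycycline, and OSKM+B12 cells had both, all for 72 h. All 12 libraries came from cells that carry the cassette. Doxycycline was given only to induced cells, so effects of the drug and of the factors cannot be told apart. A library holds a whole culture, so a change in the share of a cell type and a change in RNA per cell cannot be told apart either.

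The libraries held between 56971244 and 79236795 counted read pairs. The transcripts of Pou5f1 (Oct4) stood at 19.4, 18.5 and 2.86 CPM (counts per 1000000 read pairs) in OSKM clones 1, 2 and 3 and at 20.7, 19.0 and 2.34 CPM in the same clones with B12, against 0 to 0.468 CPM in the 6 uninduced libraries. Among induced cells the Pou5f1 transcript was thus far lower in clone 3 than in clones 1 and 2. Clone 3 is part of every comparison of OSKM with MEF unless it is said to be left out. Clone 1 also stood apart in its X-linked Xist transcript, which was at most 0.0289 CPM in its 4 libraries and at least 219 CPM in the 8 libraries of clones 2 and 3. The Y-linked Ddx3y transcript stood at 80.2 to 97 CPM in clone 1 and at 0 CPM in clones 2 and 3. The titles give a different year for clone 1 than for the other clones. The 8 fibroblast markers were abundant in all libraries, Col1a1 with a mean of 34570 CPM.

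NRF2 (encoded by Nfe2l2) is a transcription factor that KEAP1 holds in the cytoplasm and marks for degradation. When electrophiles or oxidants modify KEAP1, NRF2 enters the nucleus, pairs with small MAF proteins and binds antioxidant response elements near its target genes. These targets make glutathione, return it and thioredoxin to their reduced forms, and supply the NADPH that this reduction uses. Peroxiredoxins, glutathione peroxidases and catalase remove peroxides, superoxide dismutases turn superoxide into hydrogen peroxide, and glutathione transferases join glutathione to electrophiles that ABCC1 can export. Fibroblasts in culture use these systems against the oxidants that metabolism makes.

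Response elements were looked for because NRF2 binding is what several of these genes share. The core searched was TGACNNNGC, on either strand, from 250 bases before to 50 bases after each transcription start in RefSeq promoters (GRCm38.p6). A gene was counted if any of its windows held the core. Of the 30 genes with a window, 10 held it (33.3%), against 14% of all 27025 genes with windows. By window, 10 of 40 held it (25%), against 12.4% of all windows. Among the 9 with a window that rose with B12 on average (below), 6 held it, and among the other 21, 4 did. These are counts of letter matches in a short window and do not show binding. The stretches below are shown because they hold the match in the 6 genes that rose with B12. Each runs 5′ to 3′ on the strand that reads TGACNNNGC, with the match in capitals and 10 flanking bases on each side.
Gclm: tcgtgagagtTGACGGTGCgcccgggagc
Prdx1: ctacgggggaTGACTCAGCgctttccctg
Txnrd1: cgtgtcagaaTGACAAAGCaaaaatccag
Srxn1: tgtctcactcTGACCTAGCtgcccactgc
G6pdx: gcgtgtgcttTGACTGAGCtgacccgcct
Pgd: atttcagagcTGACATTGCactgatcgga

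The Gclm stretch lies at chr3:122245413-122245441 on the minus strand, with its match 134 to 126 bases before the start of the gene. The Prdx1 stretch lies at chr4:116685456-116685484 on the minus strand, with the match 133 to 125 bases before the start. In Txnrd1 the stretch is chr10:82859104-82859132, minus strand, and the match begins 92 bases before the start. In G6pdx it is chrX:74428919-74428947, plus strand, and the match begins 57 bases before the start. The matches of Srxn1 (chr2:152105542-152105570, minus strand) and Pgd (chr4:149166061-149166089, minus strand) lie inside the transcribed part, at 28 and 3 bases past the start. For Pgd this is not the only start, and the window of another, chr4:149166656-149166955, held 0 matches. Txnrd1, Me1 and Mgst1 likewise have windows at other starts, which held 0 matches. The other 4 genes with a match did not pass the threshold with B12. They were Nfe2l2 itself, Me1, Sod1 and Mgst1.
Nfe2l2: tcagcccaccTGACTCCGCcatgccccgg
Me1: gatgccgccgTGACTCAGCgcttctcgcg
Sod1: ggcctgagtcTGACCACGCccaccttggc
Mgst1: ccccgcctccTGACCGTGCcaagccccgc

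The Nfe2l2 stretch is chr2:75704885-75704913 and that of Me1 is chr9:86695902-86695930, while Sod1 has chr16:90220696-90220724 and Mgst1 has chr6:138140461-138140489, all on the minus strand. The Me1 and Prdx1 matches have the same letters, TGACTCAGC, although Prdx1 rose with B12 and Me1 did not pass the threshold.

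The 36 genes differed widely in level. Scaled for exon length, the highest mean over the 12 libraries was 247 CPM per kilobase, for Gpx3, the secreted glutathione peroxidase. It was followed by Gpx1 at 149.5, Prdx1 at 142.5 and Txn1, the thioredoxin itself, at 118.3 CPM per kilobase. At the other end stood the cystine transporter Slc7a11, at 0.182 CPM per kilobase, and Nqo1, the quinone reductase that is often used as a readout of NRF2, at 3.14 CPM per kilobase. Slc7a11 had 88 to 229 counts in a library and Nqo1 had 213 to 474, so their values carry more counting error than those of the other genes.

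The first comparison asked what B12 did to these genes. On average over MEF and OSKM cells, 12 of the 36 genes rose with B12 and none fell. They held the rate-limiting step of glutathione synthesis (Gclc, Gclm), glutathione reductase (Gsr), the thioredoxin system (Txnrd1, Srxn1, Prdx1), NADPH supply by the pentose phosphate pathway (G6pdx, Pgd, Taldo1), mitochondrial superoxide dismutase (Sod2), biliverdin reductase B (Blvrb) and the exporter Abcc1. The changes were small, from 0.15 to 0.33 on the log2 scale, or 1.11-fold to 1.26-fold. The 12 genes are 33.3% of the 36, while 3.46% of all 19174 genes tested rose and 0.381% fell in the same comparison. Because the 36 were chosen with earlier results of these data known, these shares are a description and not a test. The median log2 fold change was 0.10 over the 36 genes and -0.01 over all genes. Of the 36, 20 had an unadjusted p under 0.05, as did 15.5% of all genes.

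**Figure D1:**
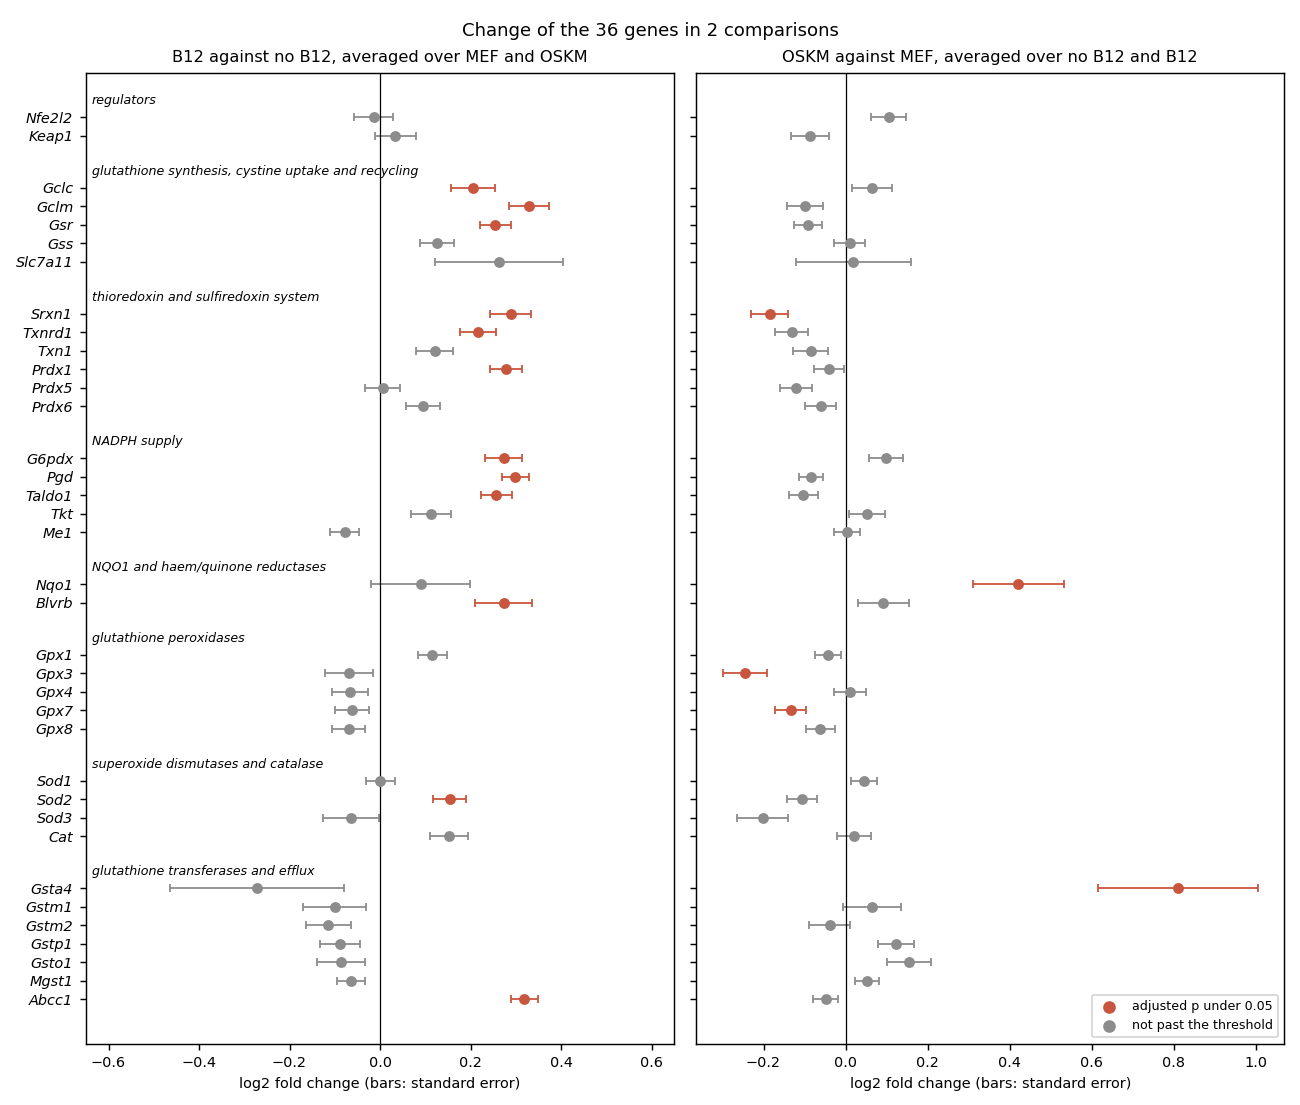
Log2 fold change of each of the 36 genes with B12 against without (left) and in OSKM against MEF (right), each averaged over the other factor, with bars for the standard error and genes in order of role. Coloured points passed the adjusted threshold of 0.05, which 12 genes did on the left, all higher, and 5 on the right, 2 higher and 3 lower.

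For the first step of glutathione synthesis, the transcripts of both subunits of the enzyme passed the threshold. Gclm, the modifier subunit of glutamate-cysteine ligase, measured 43.8, 43.3 and 39.2 CPM in MEF clones 1 to 3 and 55.8, 57.4 and 53.2 CPM in MEF+B12. In induced cells it measured 44.1, 37.7 and 41.9 CPM in OSKM and 48.3, 50.01 and 49.7 CPM in OSKM+B12. Every library with B12 was therefore above every library without it, in both states. The log2 fold change was 0.33 ± 0.04 (standard error of the edgeR fit, 12 libraries), with an adjusted p of 0.00156.

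Gclc, the catalytic subunit of the same ligase, measured 14.4, 14.6 and 13.2 CPM in MEF and 17.5, 18.1 and 16.3 CPM in MEF+B12, without overlap. In OSKM it measured 17.8, 15.1 and 14.3 CPM and in OSKM+B12 16.8, 17.9 and 16.2 CPM, so the induced groups overlapped and clone 1 was lower with B12. Its log2 fold change was 0.21 ± 0.05 (adjusted p = 0.0392). Gsr, which returns oxidised glutathione to its reduced form, measured 35.8, 31.4 and 32.7 CPM in MEF and 41.6, 40.1 and 40.5 CPM in MEF+B12. In OSKM it measured 34.6, 29.5 and 32.0 CPM and in OSKM+B12 37.5, 35.99 and 38.1 CPM. As with Gclm, no library with B12 fell among those without, and the log2 fold change was 0.25 ± 0.03 (adjusted p = 0.00164).

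The remaining glutathione supply genes did not pass the threshold. Gss, the second enzyme of glutathione synthesis, was higher with B12 in 6 of 6 pairs of libraries of the same clone and state, with a log2 fold change of 0.13 ± 0.04 (adjusted p = 0.118). Slc7a11, which brings in cystine, measured 1.52, 2.37 and 3.61 CPM in MEF, 2.41, 2.31 and 2.85 CPM in MEF+B12, 1.87, 1.92 and 2.66 CPM in OSKM and 3.03, 2.96 and 2.84 CPM in OSKM+B12. It was higher with B12 in 4 of 6 pairs and its log2 fold change of 0.26 ± 0.14 had an adjusted p of 0.419. The estimate lay within the range of the called genes, and its error was wider than theirs.

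In the thioredoxin system, Srxn1, the sulfiredoxin that repairs overoxidised peroxiredoxins, measured 56.97, 58.9 and 51.0 CPM in MEF and 67.1, 77.1 and 66.0 CPM in MEF+B12. It measured 51.2, 49.6 and 50.2 CPM in OSKM and 56.2, 61.0 and 61.9 CPM in OSKM+B12. The groups did not overlap within either state, and the log2 fold change was 0.29 ± 0.05 (adjusted p = 0.00429). Txnrd1, the cytosolic thioredoxin reductase, measured 146.2, 157.1 and 149.6 CPM in MEF and 169.3, 181.0 and 169.3 CPM in MEF+B12. It measured 121.1, 140.7 and 147.4 CPM in OSKM and 153.3, 159.3 and 167.5 CPM in OSKM+B12. The groups again did not overlap within a state (log2 fold change 0.22 ± 0.04, adjusted p = 0.0102).

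Prdx1, a cytosolic peroxiredoxin, was the most abundant of the 12 genes. It measured 393.1, 413.4 and 372.3 CPM in MEF and 466.5, 540.9 and 457.2 CPM in MEF+B12, and 395.8, 401.4 and 374.8 CPM in OSKM and 454.2, 475.4 and 459.2 CPM in OSKM+B12. The 6 libraries with B12 lay above the 6 without (log2 fold change 0.28 ± 0.04, adjusted p = 0.00137). The other members of this system did not pass: Txn1 had a log2 fold change of 0.12, Prdx6 of 0.10 and Prdx5 of 0.01.

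Among the genes that supply NADPH, Pgd had the second smallest adjusted p of the 36. It encodes the decarboxylating step of the oxidative pentose phosphate pathway. It measured 133.9, 127.0 and 111.4 CPM in MEF, 167.1, 161.8 and 133.9 CPM in MEF+B12, 126.8, 122.0 and 105.4 CPM in OSKM and 150.1, 147.8 and 133.2 CPM in OSKM+B12. Clone 3 was the lowest in every group, so the difference was clearest within clones (log2 fold change 0.30 ± 0.03, adjusted p = 0.000359). G6pdx, the enzyme that opens this pathway, measured 69.8, 55.8 and 53.0 CPM in MEF and 86.7, 76.3 and 67.2 CPM in MEF+B12. In OSKM it measured 84.1, 65.6 and 55.8 CPM and in OSKM+B12 84.5, 78.1 and 67.7 CPM, so clone 1 hardly differed with B12 once induced. Its log2 fold change was 0.27 ± 0.04 (adjusted p = 0.00322).

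Taldo1, the transaldolase of the same pathway, measured 81.7, 81.7 and 73.8 CPM in MEF and 93.5, 99.6 and 91.3 CPM in MEF+B12. It measured 71.4, 75.4 and 74.6 CPM in OSKM and 85.9, 88.4 and 89.4 CPM in OSKM+B12, with no overlap between the libraries with and without B12 (log2 fold change 0.26 ± 0.03, adjusted p = 0.00172). Transketolase (Tkt) had a log2 fold change of 0.11 and did not pass. Malic enzyme (Me1), a further NADPH source and a known NRF2 target, pointed the other way at -0.08 (adjusted p = 0.255).

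The last 3 genes of the 12 came from different roles. Abcc1, which exports glutathione conjugates, measured 57.3, 49.7 and 47.8 CPM in MEF, 73.6, 63.1 and 61.2 CPM in MEF+B12, 57.7, 47.5 and 48.3 CPM in OSKM and 67.6, 61.8 and 57.1 CPM in OSKM+B12. Its B12 difference ranged from 0.23 to 0.38 log2 units over the 6 pairs, and its adjusted p, 0.000293, was the smallest of the 36 (log2 fold change 0.32 ± 0.03). Blvrb, which reduces biliverdin and flavins, measured 27.2, 29.0 and 24.4 CPM in MEF and 33.8, 37.9 and 29.9 CPM in MEF+B12. It measured 36.05, 31.7 and 22.6 CPM in OSKM and 34.5, 39.4 and 30.1 CPM in OSKM+B12, where clone 1 was lower with B12 (log2 fold change 0.27 ± 0.06, adjusted p = 0.0358).

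Sod2, the mitochondrial superoxide dismutase, measured 47.5, 56.7 and 47.4 CPM in MEF, 54.2, 61.2 and 52.3 CPM in MEF+B12, 44.8, 48.7 and 46.4 CPM in OSKM and 51.0, 53.2 and 52.0 CPM in OSKM+B12. It had the smallest change of the 12 (log2 fold change 0.15 ± 0.04, adjusted p = 0.0416). The cytosolic Sod1 and the extracellular Sod3 had log2 fold changes of 0.00 and -0.06, and catalase (Cat) one of 0.15 (adjusted p = 0.0823).

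**Figure D2:**
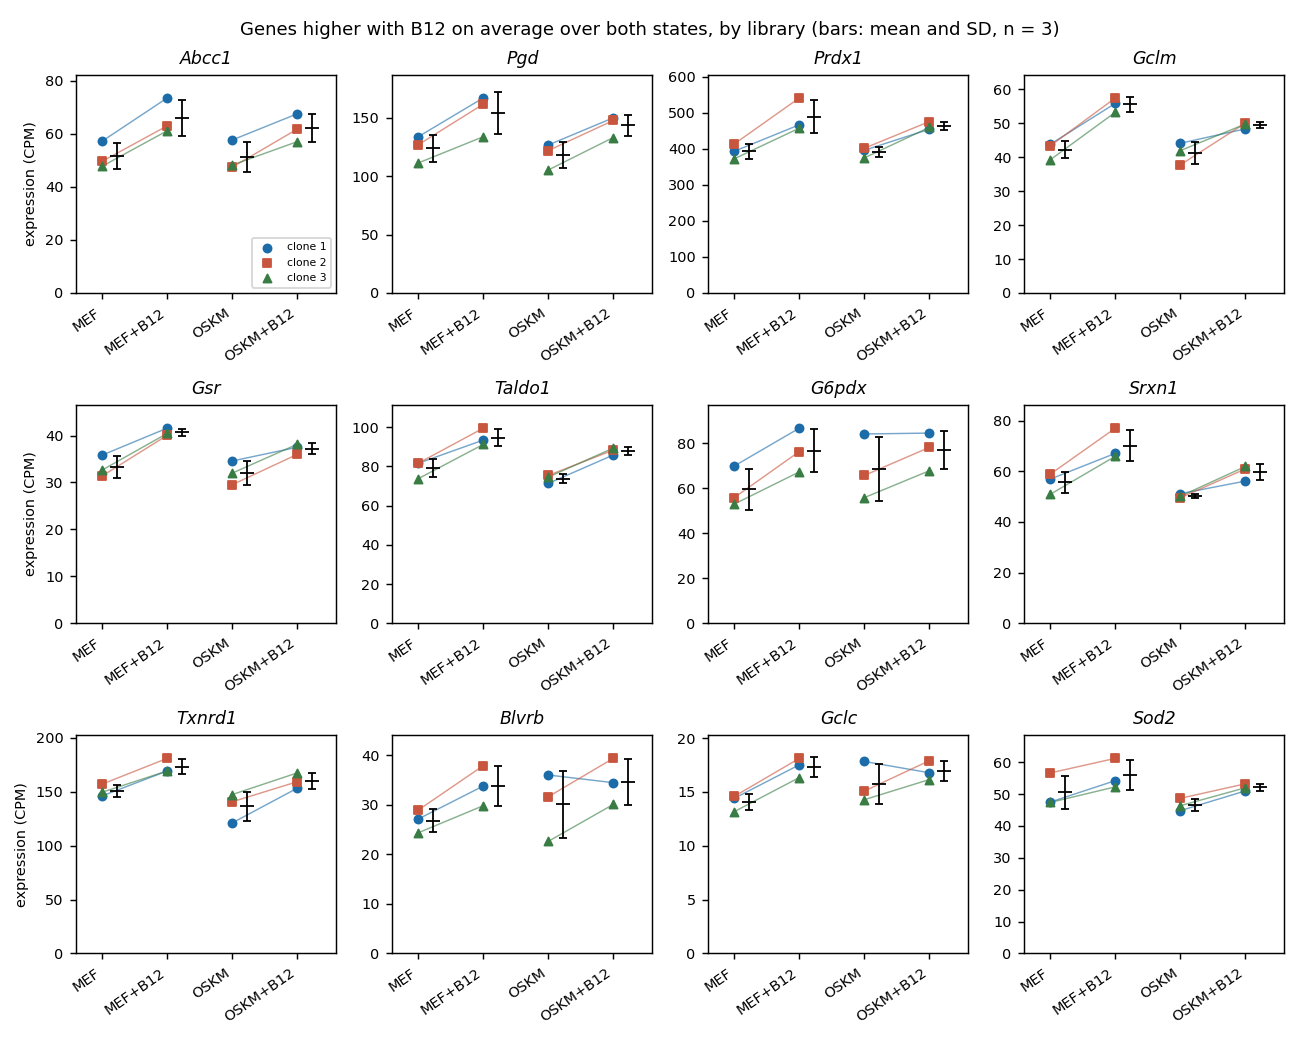
CPM of the 12 genes that rose with B12 on average, by group and clone, with lines joining libraries of the same clone and state and bars for the mean and SD of 3 libraries. Within a clone, all lines rise from left to right except those of Gclc and Blvrb in clone 1 under OSKM.

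The regulators themselves did not pass in any comparison between groups in the main edgeR fit. With library totals alone for scaling, Nfe2l2 passed for OSKM averaged over B12. Nfe2l2 measured 88.5, 88.5 and 88.2 CPM in MEF, 90.9, 89.7 and 95.7 CPM in MEF+B12, 111 CPM in OSKM clone 1, 93.8 and 95.6 CPM in OSKM clones 2 and 3, and 91.2, 95.0 and 96.0 CPM in OSKM+B12. OSKM clone 1 was thus the only library above 100 CPM. Nfe2l2 was nevertheless higher once induced in 6 of 6 pairs of the same clone and B12 state, and Keap1 in 3. With B12 the Nfe2l2 difference was only 0.005 log2 units in clone 1 and 0.005 in clone 3. Without B12, all OSKM libraries of Nfe2l2 lay above its MEF libraries, as in 4.77% of all genes. Keap1 measured 86.6, 78.8 and 80.4 CPM in MEF, 88.9, 80.1 and 78.8 CPM in MEF+B12, 71.1, 75.6 and 81.0 CPM in OSKM and 77.3, 80.4 and 79.04 CPM in OSKM+B12. The averaged B12 difference was -0.01 ± 0.04 for Nfe2l2 and 0.03 ± 0.05 for Keap1 on the log2 scale. These are transcript levels, and the NRF2 protein was not measured here.

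Nqo1 also stayed below the threshold with B12. It measured 4.47, 3.37 and 4.07 CPM in MEF and 4.48, 3.84 and 4.65 CPM in MEF+B12, with a log2 fold change averaged over states of 0.09 ± 0.11 (adjusted p = 0.747). All 6 glutathione transferases of the list (Gsta4, Gstm1, Gstm2, Gstp1, Gsto1 and Mgst1) had negative log2 fold changes with B12, from -0.27 to -0.06, and none passed the threshold. Gsta4, Gstm2 and Mgst1 were lower with B12 in 6 of 6 pairs. The 4 glutathione peroxidases other than Gpx1, namely Gpx3, Gpx4, Gpx7 and Gpx8, lay between -0.07 and -0.06, and Gpx1 at 0.12 (adjusted p = 0.0813). No transferase or glutathione peroxidase was thus among the 12 genes that rose. Gpx1 did pass with DESeq2, with library totals alone for scaling and with a block for each clone and state.

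The pairs of libraries show how steady these differences were. Of the 12 genes, 10 were higher with B12 in 6 of 6 pairs, and Gclc and Blvrb in 5. In MEF, the B12 differences of the 12 genes had medians of 0.26, 0.35 and 0.31 log2 units in clones 1, 2 and 3. In OSKM the medians were 0.16, 0.26 and 0.26, and the lowest single value was -0.09, in clone 1. Calls were fewest when clone 2 was left out. Without clone 2, none of the 12 passed the adjusted threshold in edgeR (adjusted p from 0.0567 to 0.504), although all 12 stayed higher with B12, by 0.17 to 0.29, and all 12 had an unadjusted p under 0.05. Without clone 1, 10 of the 12 passed, and without clone 3, 9 did. Among all genes, 2.75% passed without clone 1, 0.176% without clone 2 and 1.65% without clone 3. Calls were thus fewest without clone 2 over all genes too.

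**Figure D3:**
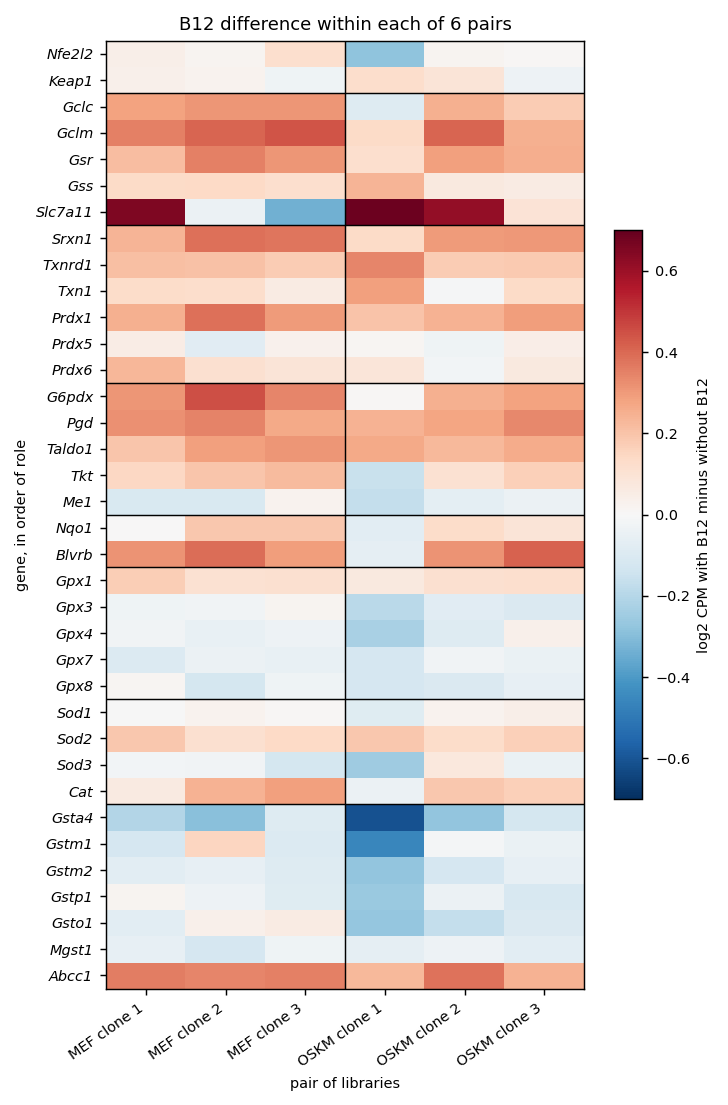
Log2 CPM with B12 minus without B12 for each of the 36 genes in 6 pairs of libraries, 3 clones in each of 2 states, with genes in order of role and horizontal lines between roles. Genes of synthesis, thioredoxin and NADPH supply are mostly red (higher with B12), while the glutathione transferases are mostly blue, and OSKM clone 1 is the palest column for the 12 genes that rose.

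Taken state by state, 8 of the 36 genes rose with B12 in MEF (Gclm, Gsr, Srxn1, G6pdx, Pgd, Taldo1, Prdx1 and Abcc1), or 22.2%, while 1.37% of all genes did. The log2 fold change of Gclm was 0.40 ± 0.06 there (adjusted p = 0.0125). In OSKM cells, 3 rose (Pgd, Taldo1 and Abcc1), or 8.33%, against 1.05% of all genes. All 3 were also among the 8. In Gclm the B12 difference in OSKM was 0.26 ± 0.06 (adjusted p = 0.0964). When the difference between the states was tested itself, 0 of the 36 genes passed in edgeR, 1 had an unadjusted p under 0.05 (G6pdx, with a B12 effect smaller by 0.19 ± 0.08 in OSKM), and DESeq2 also called 0. Among all genes 0% passed this test. The counts of calls in MEF and in OSKM are therefore no evidence of unequal effects. Both counts fell to 0 without clone 2 and also without clone 3. Among all genes, 0% passed in either state without clone 2. Without clone 3, 0.151% passed in MEF and 0.0676% in OSKM.

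Levels that did not overlap give the same comparison without a model. In MEF, 14 of the 36 genes had 3 libraries with B12 above the 3 without, and 0 were wholly lower, while 5.85% of all genes were wholly higher and 3.55% wholly lower. In OSKM, 9 were wholly higher, against 4.80% of all genes, and 1, Gstm2, was wholly lower, or 2.78%, against 2.73% of all genes. Over both states, 4 genes (Gclm, Gsr, Prdx1 and Taldo1) had all 6 libraries with B12 above the 6 without, as did 0.829% of all genes.

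Macrophage markers also moved with B12, and this bears on every B12 result above. Of 14 macrophage markers, 13 rose on average over states, with a median log2 fold change of 0.56 over the list, while Cx3cr1 went the other way, lower with B12 in 6 of 6 pairs at -0.45 ± 0.20 (adjusted p = 0.296). Without clone 2, 1 of the 14 passed and the median was 0.50, and without clone 3, 8 passed. The summed level of the 14 markers was 1389 to 2646 CPM in MEF, 2101 to 3502 CPM in MEF+B12, 1425 to 2458 CPM in OSKM and 2197 to 2861 CPM in OSKM+B12. Within each of the 6 pairs the total was higher with B12. None of the markers was at 0 in all libraries. The part of macrophages in the rise of the 12 genes was not tested. All 8 fibroblast markers had negative log2 fold changes with B12, with a median of -0.11, and 0 passed. Other marker lists were low, with sums of at most 0.237 CPM for 7 erythroid, 13.4 for 6 epithelial, 9.50 for 7 muscle, 45.5 for 7 neural and 144.9 CPM for 7 endothelial markers.

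**Figure D4:**
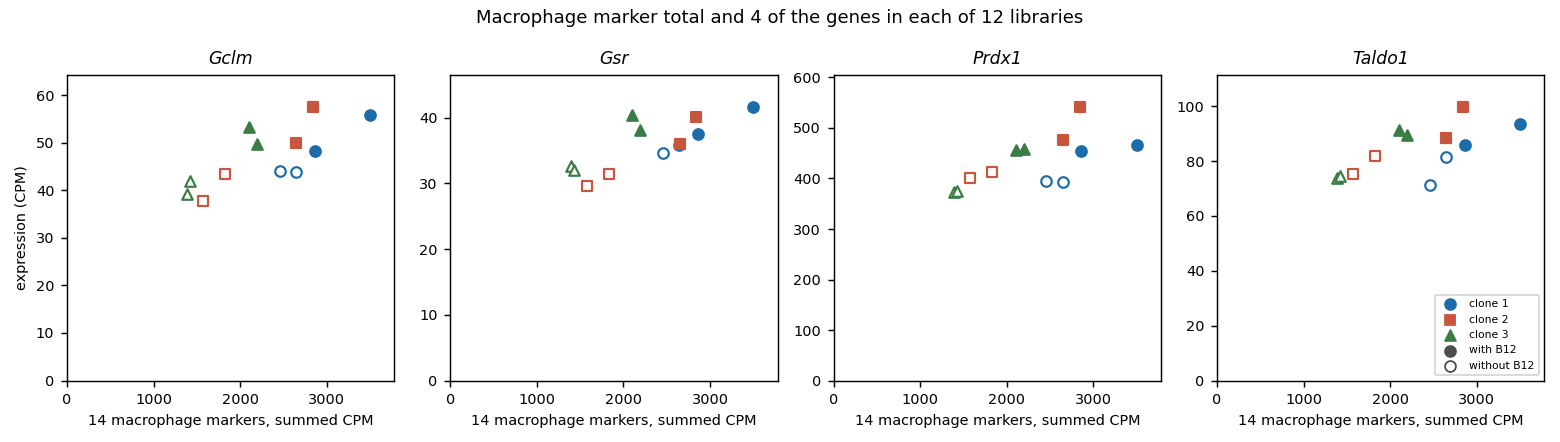
CPM of Gclm, Gsr, Prdx1 and Taldo1 against the summed CPM of 14 macrophage markers in each of 12 libraries, with shapes and colours for clones and filled symbols for B12. The 4 genes were chosen because their libraries with B12 all lie above those without, so the vertical separation was fixed by the choice, and within each clone and state the macrophage total was also higher with B12.

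Further genes of the same pathways were compared through 6 lists of related genes, with 87 of their 92 genes tested. With B12, 11 of the 87 rose on average over states (12.6%) and 0 fell, while 3.46% of all genes rose and 0.381% fell. Over the 87, the count was 7 without clone 1, 1 without clone 2 and 7 without clone 3. Among all genes, 2.75%, 0.176% and 1.65% passed in these fits. Among 19 further NRF2 targets, 6 rose. The clearest was Hmox1, haem oxygenase 1, which measured 104.3, 125.7 and 100.1 CPM in MEF, 181.7, 224.4 and 157.1 CPM in MEF+B12, 117, 117.9 and 99.7 CPM in OSKM and 184.9, 214.4 and 158.7 CPM in OSKM+B12. Its libraries with and without B12 did not overlap, and its log2 fold change of 0.75 ± 0.04 (adjusted p = 2.62e-05) was larger than that of any of the 36 genes. The ferritin chains Ftl1 (0.28 ± 0.06, adjusted p = 0.0178) and Fth1 (0.34 ± 0.07, adjusted p = 0.0304), the aldo-keto reductase Akr1b8 (0.47 ± 0.08), the exporter Abcc3 (0.41 ± 0.10) and the haem transporter Slc48a1 (0.20 ± 0.04) also rose.

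Of 16 further thioredoxin, glutaredoxin and peroxide genes, Glrx (0.32 ± 0.05, adjusted p = 0.00482) was the only one to rise. None of 25 genes of glutathione use and breakdown, 11 further NADPH genes and 9 NRF2 partners passed in edgeR, with 5, 4 and 1 of them at an unadjusted p under 0.05.

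The second comparison asked what induction of OSKM did. In edgeR, 0 of the 36 genes passed without B12 (11 had an unadjusted p under 0.05) or with B12 (9 did), while 0.073% and 0.104% of all genes passed. The unadjusted p was under 0.05 for 19% and 14.9% of all genes. DESeq2 called 0 and 1 of the 36 in these comparisons, and 2.54% and 2.17% of all genes. Without clone 3, edgeR called 3 and 5 of the 36, and 6.87% and 5.22% of all genes. By levels that did not overlap, without B12, 2 of the 36 were wholly higher in OSKM and 1 wholly lower. Among all genes 4.77% and 4.32% were. With B12, 0 were wholly higher, against 5.47% of all genes. Wholly lower were 6 (Gclm, Gsr, Prdx5, Srxn1, Taldo1 and Txnrd1), against 5.04% of all genes. Averaged over B12, 2 genes were higher (Gsta4 and Nqo1) and 3 lower (Gpx3, Srxn1 and Gpx7), while 4.46% of all genes were higher and 5.26% lower. The 5 genes are 13.9% of the 36. The averaged test counts both B12 states of a clone. When the libraries of a clone were summed over B12, 0 of the 36 passed in edgeR (adjusted p from 0.224 to 0.274 for the 5 genes), and 0 passed without clone 1 or without clone 2. Among all genes, 0.025% passed with summed libraries, 0.0524% without clone 1 and 0.0155% without clone 2. Without clone 3, 10 passed, 3 higher and 7 lower, and 15.9% of all genes did. With library totals alone for scaling, 5 were higher and 1 lower. For B12 averaged over states, 11 of the 12 calls remained when libraries were summed in the same way over OSKM, a fit in which Gclc had an adjusted p of 0.0688.

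Gsta4, a glutathione transferase that acts on lipid peroxidation products, had the largest change. It measured 5.13, 7.53 and 8.71 CPM in MEF clones 1, 2 and 3, 14.5, 16.8 and 8.63 CPM in OSKM, 4.45, 6.15 and 8.16 CPM in MEF+B12 and 9.50, 13.9 and 7.93 CPM in OSKM+B12. Clones 1 and 2 were higher once induced and clone 3 was level, so the groups overlapped. The averaged log2 fold change was 0.81 ± 0.19 (adjusted p = 0.0314). The size of the response differed between clones (adjusted p = 0.00741): the log2 differences without B12 were 1.497, 1.15 and -0.01 in clones 1, 2 and 3, and with B12 they were 1.09, 1.17 and -0.04. It was the only 1 of the 36 (2.78%) whose response differed between clones, a test that 2.15% of all genes passed. Without clone 3 it no longer passed (adjusted p = 0.894).

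As with Gsta4, clone 3 had the lowest Nqo1 among induced cells. Nqo1 measured 7.03, 5.41 and 4.18 CPM in OSKM and 6.69, 5.92 and 4.46 CPM in OSKM+B12, against the 3.37 to 4.65 CPM of uninduced cells given above. Its log2 differences without B12 were 0.65, 0.68 and 0.04, and with B12 0.58, 0.62 and -0.06 (average 0.42 ± 0.11, adjusted p = 0.04). The difference between clones in its response did not pass (adjusted p = 0.0741). For both genes the responding clones were those with more Pou5f1 transcript, and whether the dose of the factors sets the response was not tested.

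Of the genes that fell, Gpx3 measured 326.8, 626.5 and 510.4 CPM in MEF, 291, 477.1 and 507.5 CPM in OSKM, 320.2, 616.1 and 517.8 CPM in MEF+B12 and 255.4, 451.2 and 472.8 CPM in OSKM+B12. In 6 of 6 pairs the induced library was lower, with differences of -0.45 to -0.01 log2 units, although the groups overlapped because the clones differed more than the states (log2 fold change -0.25 ± 0.05, adjusted p = 0.0252). Srxn1, whose values stand above, fell by 0.19 ± 0.05 on the log2 scale (adjusted p = 0.0333) and was lower in 6 of 6 pairs. Induction and B12 thus had opposite signs for Srxn1, the only gene that passed in both averaged comparisons. These signs were not particular to it. Gsr, Txnrd1, Pgd and Sod2 were also higher with B12 in 6 of 6 pairs and lower once induced in 6 of 6. For induction those genes did not pass in the main edgeR fit. Gpx7, a peroxidase of the endoplasmic reticulum, measured 100.4, 103.4 and 104.9 CPM in MEF, 88.5, 89.8 and 103.7 CPM in OSKM, 94.1, 100.4 and 101.2 CPM in MEF+B12 and 81.7, 88.4 and 100.3 CPM in OSKM+B12. Its log2 fold change was -0.13 ± 0.04 (adjusted p = 0.049), with almost no change in clone 3. Markers of other cell types moved with OSKM too. Of the 8 fibroblast markers, 4 fell, with a median log2 fold change of -0.22 over the list. Of 4 epithelial markers tested, 3 rose (Krt8, Krt14 and Cdh1), and the sum of the list was 0.838 to 1.81 CPM in the uninduced libraries, 8.17 to 13.4 CPM in induced clones 1 and 2 and 1.07 to 1.28 CPM in induced clone 3. Of 3 endothelial markers tested, 2 rose (Cdh5 and Tek), and the sum of the list was 41.9 to 46.6 CPM in uninduced libraries, 124.7 to 144.9 CPM in induced clones 1 and 2 and 48.9 to 53.1 CPM in induced clone 3. Of the 14 macrophage markers, Itgam rose and Adgre1 and Csf1r fell. The part of these cell types in the changes of the 5 genes was not tested.

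**Figure D5:**
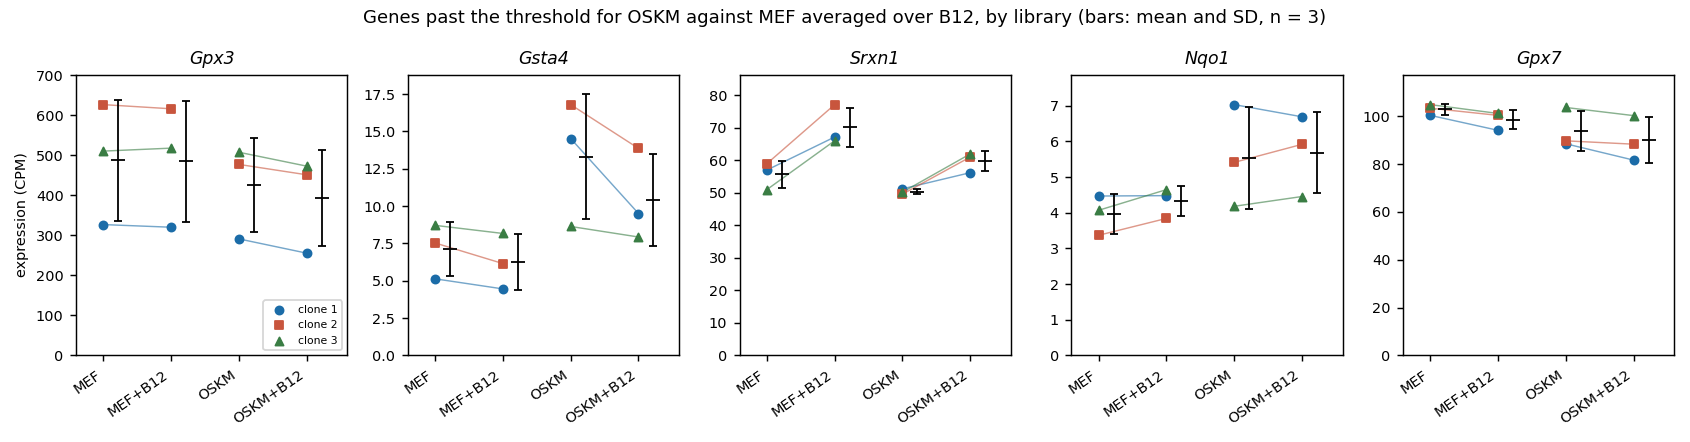
CPM of the 5 genes past the threshold for OSKM against MEF averaged over B12, by group and clone, with lines joining libraries without and with B12 and bars for the mean and SD of 3 libraries. Gsta4 and Nqo1 are higher in induced clones 1 and 2 and level in clone 3, and clone 1 has the lowest Gpx3 in all groups.

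Of the 87 genes in the related lists, 18 passed for OSKM averaged over B12 (20.7%), 7 higher and 11 lower. Among all genes, 9.73% passed. None of the 87 passed without clone 1, without clone 2 or with libraries summed within clones in edgeR. Without clone 3, 27 passed, as did 15.9% of all genes. Other glutathione transferases were among the higher ones. Gstm7 had a log2 fold change of 0.91 ± 0.13, Gstt3 of 0.54 ± 0.09 and Gstt1 of 0.35 ± 0.04. Gsta1 and Gsta2 also rose, by 2.38 and 2.29, but from very low levels: Gsta1 was at most 0.17 CPM in uninduced libraries and at most 1.17 CPM in induced ones. These 2 genes are close copies of each other and their separate counts are uncertain. The ferritin chains fell, Ftl1 by 0.24 ± 0.06 and Fth1 by 0.27 ± 0.07 on the log2 scale, as did Prdx4, Glrx, Lrp8, Bach2, Nox4, Xdh, Ggt5, Mthfd2 and Aldh1l1. Txnrd3 and Msrb2 rose by 0.23 and 0.22.

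The clones themselves differed in many of these genes. Each clone is 1 embryo with 4 libraries, so this test measures the spread between libraries and not between embryos. Between clone 1 and the others, clone also cannot be told apart from the year in the titles or from embryo sex. Clones 2 and 3 share the year in the titles, and both have the Xist transcript and lack that of Ddx3y. Of the 36, 21 differed in level between clones (58.3%), while 37.8% of all genes did. Without clone 1 the count was 8, with 6.88% of all genes, without clone 2 it was 13, with 27.3%, and without clone 3 it was 15, with 28.2%. Gpx3 averaged 298.4 ± 32.6 CPM in clone 1, 542.7 ± 91.5 CPM in clone 2 and 502.1 ± 20 CPM in clone 3 (SD over 4 libraries of a clone, adjusted p = 1.38e-05). Clone 1 thus lay wholly below the others, and clones 2 and 3 overlapped. Prdx6, which has both peroxidase and phospholipase activity, was highest in clone 2, at 99.1 ± 7.17 CPM, against 71.1 ± 5.03 in clone 1 and 81.0 ± 2.60 in clone 3. G6pdx, the X-linked member of the 36, was highest in clone 1, at 81.3 ± 7.69 CPM against 69.0 ± 10.4 and 60.9 ± 7.66 CPM. Clone 1 is the clone with little Xist and with Ddx3y, and whether this bears on G6pdx was not tested. Of the 12 genes that rose with B12, 5 also differed in level between clones.

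Some of the 36 share sequence with other genes, and reads from the shared parts can be lost or moved. The share of a gene's 31-base words found in transcripts of another gene was 38.9% for Gpx4, 38.5% for Gstp1, 36.9% for Me1, 28.8% for Gstm1, 26.7% for Sod2, 23.6% for G6pdx and 15.4% for Prdx1. The levels of these genes are therefore uncertain.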

How the data were processed

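Poly(A) RNA of 12 cultures was sequenced as directional libraries with paired reads. The authors aligned the reads with STAR and assigned pairs to Ensembl 97 genes with featureCounts (reverse-stranded), adding the flow cells of a library. The submitters' processing notes give STAR 2.5.2 and the builds mm10 and GRCm38. The table they deposited holds unscaled counts, with replicates kept apart. The labels give another number of flow cells and another doxycycline concentration than the methods of the study, and the concentration of the labels is used here.

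Counts were tested with the quasi-likelihood F test of edgeR 4.0.16 (R 4.3.3) with TMM scaling (factors 0.934 to 1.06), filterByExpr by group, and clone and group as terms in 1 fit over 12 libraries. P-values were adjusted over all 19174 genes by the Benjamini-Hochberg method with a threshold of 0.05, and the error given with each log2 fold change is the standard error of the fit. CPM used TMM-scaled library totals, and log2 CPM a prior count of 2. A further fit with clone, state and their product tested the response of the clones. The clone was a block because the labels tie each number to an embryo, and libraries of the same clone deviated together (correlations 0.27 to 0.687 over 18 pairs). The fit was tested on simulated data.

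Symbols, coordinates (GRCm38, 1-based) and exon lengths came from GENCODE M21, which matched 55480 of 55573 identifiers, and promoters from RefSeq. The 36 genes, the lists of related genes and the cell type markers were chosen with earlier results of these data known. Genes named with values for every library were Nfe2l2, Keap1, Nqo1, Gclc, Gclm, Slc7a11, Txnrd1 and Srxn1, every one of the 36 past the threshold in a comparison of groups or of clone responses, and those with the 3 largest changes for OSKM and for B12. Alternatives were DESeq2 1.42.0, its size factors, library totals alone, other filters, no clone block, the compared libraries alone and the omission of each clone. A block for each pair of libraries (same clone and state), and libraries summed within clones, were added after seeing the data. The B12 result of 1 list of related genes is not reported here.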

Additional observations from a re-analysis of the deposited data

Results flagged for a closer look

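The response of Gsta4 to OSKM differed between clones (edgeR F test, adjusted p = 0.00741), with a rise in clones 1 and 2 and no rise in clone 3. Among the 87 related genes tested, 4 had such a difference (4.6%), while 2.15% of all genes did. For Aox1 (adjusted p = 0.0115) the log2 differences between OSKM and MEF without B12 were 0.48, 0.83 and -0.21 in clones 1, 2 and 3. For Gstt3 (adjusted p = 0.0338) they were 0.57, 0.78 and 0.11, for Ggt5 (adjusted p = 0.00662) -0.75, -0.96 and 0.00, and for Xdh (adjusted p = 0.0222) -0.59, -0.62 and -0.16. In each of these genes clone 3, which had the lowest Pou5f1 transcript among induced cells, had the smallest difference. The B12 effect differed between states in 0 of the 36 genes by edgeR (1 at an unadjusted p under 0.05) and in 0 by DESeq2.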

How the results depend on the processing

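For B12 averaged over states, the 12 genes kept their direction in every alternative run. The count of calls over the 36 genes was 9 to 14 except without the clone block and without clone 2. It was 3 without the clone block (Gclm, Srxn1 and Taldo1) and 0 without clone 2. Among all genes, 1.65% to 5.64% passed in the runs with 9 to 14 calls, 0.469% without the clone block and 0.176% without clone 2. Further runs left out a clone, or only the OSKM library of clone 1 without B12. They gave 0 to 13 calls for B12 averaged (0.176% to 4.03% of all genes). B12 in MEF had 0 to 10 (0% to 1.71%) and B12 in OSKM 0 to 3 (0% to 1.17%). OSKM averaged had 0 to 10 calls (0.0155% to 15.9% of all genes). OSKM with B12 had 0 to 5 (0.00518% to 5.22%) and OSKM without B12 0 to 3 (0.00518% to 6.87%). The response of the clones had 0 to 4 (0% to 4.3%) and their level 8 to 18 (6.88% to 35.9%). Without the clone block, which drops the pairing by embryo, 0 of the 36 genes passed for B12 in MEF, B12 in OSKM and OSKM averaged. In each of these comparisons 0% of all genes passed. For B12 averaged, all 12 genes still had an unadjusted p under 0.05 in that fit. With the compared libraries alone, B12 in MEF had 14 calls (4.58% of all genes) and B12 in OSKM 0 (0.583%).

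DESeq2 called 8 genes for B12 in OSKM, 1 for OSKM with B12 and 2 for the response of the clones. Among all genes it called 2.02%, 2.17% and 3.11%. Library totals alone gave 6 for B12 in OSKM (1.38% of all genes), and moved the median of all genes for OSKM averaged to 0.04. With no filter, 5 passed for B12 in OSKM, 1 for OSKM without B12, 1 for OSKM with B12 and 4 for the response of the clones. The shares of all genes were 1.1%, 2.06%, 1.95% and 3.8%. A block for each clone and state gave 7 for B12 in OSKM (1.79% of all genes). Libraries summed within clones gave 0 for OSKM averaged (0.025%). The cause of these shifts was not tested. Fits that left out a clone rested on 2 clones each. Slc7a11 had 88 to 229 counts in a library and Nqo1 had 213 to 474.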
